A study of Mus musculus with 24 samples.

Results

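The miRNAs described here are the members of the circuit around the circular RNA Cdr1as that were counted by miRNA-Seq, namely mmu-miR-7a-5p, mmu-miR-7b-5p, mmu-miR-7a-1-3p, mmu-miR-671-5p, and mmu-miR-671-3p. They were taken by name, 5 of the 1531 mouse miRNAs listed, and all 5 were found in every table. The libraries came from CD1 mouse pups on postnatal day 9, a group of 4 with hypoxic-ischemic brain injury (HIBI) and a group of 4 sham controls, with the cerebellum, striatum/thalamus, and cortex of the right side taken from each pup for 24 libraries in all. In the HIBI group the right carotid artery was closed and, after 2 h of recovery, the pups breathed 8% oxygen for 30 min, while the sham pups had the same dissection without closure of the artery and stayed away from the dam in normal air. Both groups received isoflurane and bupivacaine. Tissue of both groups was frozen 30 min after the injury, and no group with hypoxia alone was made. Pups of both sexes entered the study. Pups 1, 4, 5, and 7 were HIBI and pups 2, 3, 6, and 8 were sham. Each library held between 1254185 and 3406624 counts on mouse miRNAs. The neuronal miRNAs used to check the tissue (miR-124-3p, miR-9-5p, miR-128-3p, miR-137-3p, miR-138-5p, and miR-218-5p) were present, 6 of 6, in every library.

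MiR-7 is an old and strongly conserved miRNA of neurosecretory cells and neurons, known from the pituitary, the hypothalamus, and the pancreatic islet. In the brain its best known partner is Cdr1as, a circular RNA of neurons that carries a long row of miR-7 sites and that does not code for protein. MiR-671-5p is known to pair with Cdr1as almost along its whole length, which lets Argonaute2 cut the circle, and the 3p strand of the same hairpin is the other product of Dicer.

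The mature sequences show what unites and separates the members. All were matched by name to RefSeq entries on GRCm38.p6, and the capitals mark the seed, bases 2 to 8, with which a miRNA selects its targets.
mmu-miR-7a-5p: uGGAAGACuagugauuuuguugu
mmu-miR-7b-5p: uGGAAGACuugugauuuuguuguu
mmu-miR-671-5p: aGGAAGCCcuggaggggcuggag
mmu-miR-671-3p: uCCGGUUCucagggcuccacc
mmu-miR-7a-1-3p: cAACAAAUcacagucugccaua
mmu-miR-7a-2-3p: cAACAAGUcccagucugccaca
mmu-miR-7b-3p: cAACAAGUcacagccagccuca
Counted from the 5′ end, miR-7a-5p and miR-7b-5p differ by A10U and by 1 further base at the 3′ end, and they share a seed that no other mature miRNA in the table holds. The seed of miR-671-5p differs from theirs by A7C alone. The last pair of sequences belongs to no member and is shown because the 3p strands tell the miR-7 hairpins apart, which miR-7a-5p cannot, since the same strand is made from Mir7-1 and from Mir7-2. MiR-7a-1-3p differs from miR-7a-2-3p by A7G, A10C, and U21C, so that the seeds differ.

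On GRCm38, Mir7-1 lies at chr13:58392779-58392886 on the minus strand, in an intron of each of the 12 overlapping transcripts of Hnrnpk, which encodes an RNA-binding protein. Mir7-2, at chr7:78888277-78888373, is in no other annotated gene, and Aen is the nearest at 7481 bases. Mir7b, at chr17:56242988-56243098, is also between genes, 183 bases from the lincRNA AC026385.1. Mir671, at chr5:24592114-24592211, overlaps coding sequence of Chpf2 in 2 of the 2 overlapping transcripts and, on the opposite strand, an exon of 1 transcript of Smarcd3.

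The partner of these miRNAs was examined as sequence only, since Cdr1as RNA was not measured by these libraries. Exon 6 of the transcript C230004F18Rik-206, for which RefSeq gives Cdr1as as a synonym of the gene, spans 2927 bases at chrX:61183248-61186174 of GRCm38 on the plus strand. The 7-base match to the miR-7 seed, GTCTTCC, occurs there 123 times, and 0 times on the other strand. Among the last 2927 bases of the 25516 transcripts of other genes that are at least that long, 23.8% hold the match at least once. The highest number was 5, in Spata2, and on the reverse strand of these ends 12, with the gene Cdr1 left out. The match to the miR-671-5p seed, GGCTTCC, occurs once in the exon, and 26.8% of the same transcript ends hold it. The site with the most bases paired to each miRNA is written in DNA letters on the plus strand, with the bases opposite the seed in capitals.
miR-7a-5p site chrX:61183571-61183593: tccagaaaaatccaaGTCTTCCa
miR-671-5p site chrX:61186029-61186051: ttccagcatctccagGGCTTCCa
The miR-671-5p site pairs 19 of 23 bases without a gap, against a median of 6 over the 2905 positions in the exon. The next best positions pair 17 and 16 of 23 bases and hold the miR-7 match GTCTTCC opposite the seed. Of the 123 miR-7 sites, the best paired 16 of 23 bases and the median was 13. A match is a description of the letters and was not measured as binding.

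The levels are CPM, mouse miRNA counts scaled to a common library total after TMM normalization, an edgeR scaling that sets the libraries on the trend of most miRNAs. MiR-7a-5p was the most abundant member in every region. It averaged 3875 ± 1466 CPM in the striatum/thalamus (SD, n = 8), 2090 ± 861 in the cortex, and 1341 ± 793 in the cerebellum, which made it number 39, 60, and 71 by mean CPM among the miRNAs detected there. MiR-7b-5p averaged 1337 ± 525, 752 ± 214, and 539 ± 247 CPM in the same order. A bulk library cannot tell fewer cells of a type from less of the RNA per cell, and this holds for every level below.

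**Figure D1:**
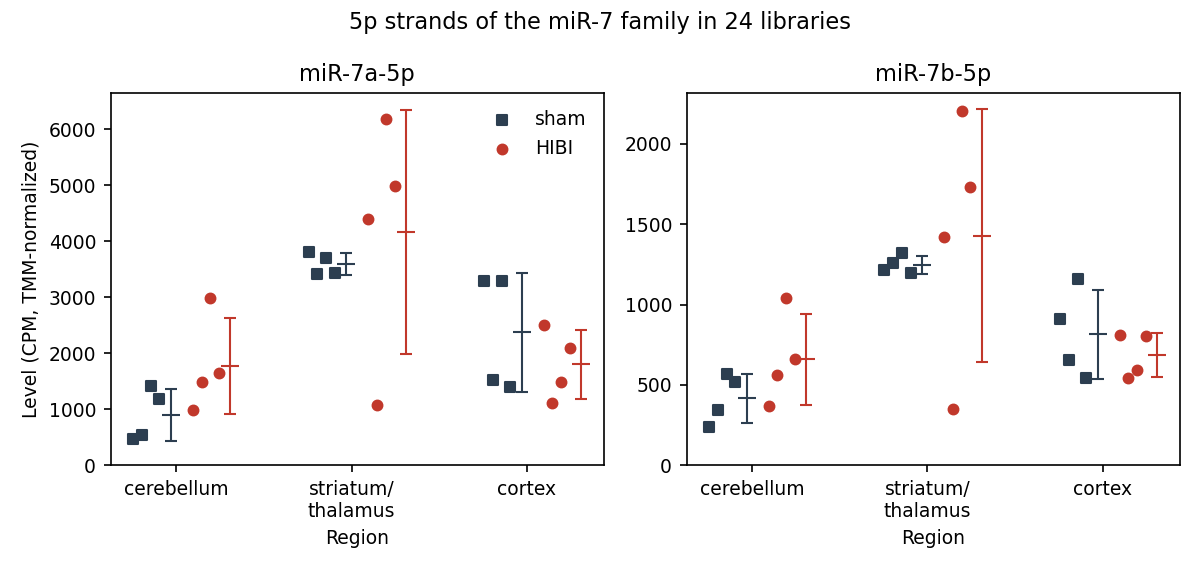
Levels of miR-7a-5p and miR-7b-5p (CPM, TMM-normalized) by region, with 1 point per library, sham as squares and HIBI as circles, and mean ± SD of 4 libraries at the right of each group. The striatum/thalamus libraries lie highest, apart from the HIBI library of pup 4 at 1085 CPM of miR-7a-5p, and the sham libraries of that region lie close together between 3410 and 3803 CPM.

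The regions were compared in 1 model of the 24 libraries with edgeR's quasi-likelihood test and Benjamini-Hochberg adjustment over the 436 miRNAs tested, with a difference counted at an adjusted p-value under 0.05. Between the striatum/thalamus and cerebellum, 3 of the 5 members differed, beside 69.5% of all miRNAs tested. MiR-7a-5p was 3.05-fold higher in the striatum/thalamus (log2 1.61, standard error 0.309, edgeR adjusted p = 6.89e-05), with 7 of 8 pups higher there. MiR-7b-5p was 2.54-fold higher (log2 1.34, standard error 0.271, edgeR adjusted p = 0.000121), also in 7 of 8 pups. The exception for both was pup 4. Their log2 differences were 1.99 and 1.58 in the sham libraries alone and 1.23 and 1.11 in the HIBI libraries alone, and each passed. MiR-7a-1-3p went the other way and was lower in the striatum/thalamus in 8 of 8 pups (log2 -1.31, standard error 0.262, edgeR adjusted p = 0.000109).

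The cortex held less of the 5p strands than the striatum/thalamus. Here 3 of the 5 members differed, beside 53.7% of all miRNAs. The log2 difference was -0.90 for miR-7a-5p (standard error 0.304, edgeR adjusted p = 0.0157) and -0.83 for miR-7b-5p (0.268, edgeR adjusted p = 0.0121), each with 1 of 8 pups higher in the cortex. MiR-7a-1-3p was higher in the cortex than in the striatum/thalamus in 8 of 8 pups (log2 1.08, standard error 0.261, edgeR adjusted p = 0.00136). In the sham libraries alone the log2 differences were -0.59, -0.61, and 0.84 and 0 of the 3 passed the adjusted threshold, and without pup 5 that of miR-7a-5p was -0.73 and did not pass.

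Between the cortex and cerebellum, miR-7a-5p and miR-671-5p passed the test, 2 of 5 members beside 65.6% of all miRNAs. The log2 difference of miR-7a-5p was 0.71 (standard error 0.304, edgeR adjusted p = 0.0441), with 6 of 8 pups higher in the cortex. It did not pass without pup 1, 2, 3, 6, or 7 (0.47, 0.50, 0.71, 0.75, and 0.64), and was 0.02 in the HIBI libraries alone. That of miR-7b-5p was 0.51 (standard error 0.267, edgeR adjusted p = 0.0936), and with the pup as a block it was 0.55 (edgeR adjusted p = 0.0482). For miR-7a-5p the block gave 0.72 (edgeR adjusted p = 0.0233). The paired exact sign-flip permutation p was 0.109 for miR-7a-5p and 0.0781 for miR-7b-5p, both unadjusted.

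Markers of endocrine and pituitary cells, which also hold miR-7, differed between regions, though not always in the direction of miR-7a-5p. For a list of 5 (miR-375-3p, miR-200a-3p, miR-200b-3p, miR-141-3p, and miR-429-3p), the summed level ran from 284 to 816 CPM in the striatum/thalamus, from 140 to 322 in the cerebellum, and from 85.7 to 279 in the cortex. Of its 3 members tested, 3 were higher in the striatum/thalamus than in the cerebellum, beside 69.5% of all miRNAs differing. In the cortex 2 of the 3, miR-200b-3p and miR-429-3p, were also higher than in the cerebellum (log2 1.38 and 1.68, beside 65.6%), while the difference of miR-375-3p was -0.60 and did not pass. Against the striatum/thalamus, 2 of the 3 were lower and 0 higher in the cortex (beside 53.7%). MiR-141-3p was at 0 in every library of 5 of the 6 groups. Other lists also differed. Of 6 neuronal miRNAs, 5 were higher in the cortex than in the striatum/thalamus (beside 53.7%). Against the cerebellum, 3 were higher in the cortex, and 1 was higher and 2 lower in the striatum/thalamus. Skeletal muscle miRNAs were lower than in the cerebellum in both, 2 of 2 tested. Of 4 choroid plexus and ciliated cell miRNAs, 4 were lower in the cortex than in the cerebellum, and 2 lower and 1 higher in the striatum/thalamus. The part of any of these cells in the miR-7 levels was not tested.

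The 3p strands, which tell the miR-7 hairpins apart, differed between regions. Their levels describe mature strands and not the output of the hairpins. MiR-7a-1-3p, from Mir7-1, averaged 52.9 ± 16.5 CPM in the cerebellum (SD, n = 8), 45.1 ± 5.63 in the cortex, and 21.3 ± 9.82 in the striatum/thalamus. The cerebellum and cortex did not differ beyond their spread (log2 -0.24, 95% interval -0.76 to 0.29). MiR-7a-2-3p, from Mir7-2, ran from 98.5 to 178 CPM in the cerebellum and from 392 to 868 in the striatum/thalamus, with no overlap. In the cortex it ran from 532 to 815 CPM. It was higher than in the cerebellum in 8 of 8 pups in both forebrain regions, with log2 differences of 2.13 for the striatum/thalamus (edgeR adjusted p = 3.29e-11) and 2.21 for the cortex (edgeR adjusted p = 1.55e-11). MiR-7b-3p, from Mir7b, was lower in the striatum/thalamus than in the cerebellum (log2 -0.93, edgeR adjusted p = 0.00208) and the cortex (edgeR adjusted p = 0.00106), against the direction of miR-7b-5p. The 3p strands of Mir7-1 and Mir7b were thus lowest in the region where the 5p strands were highest.

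**Figure D2:**
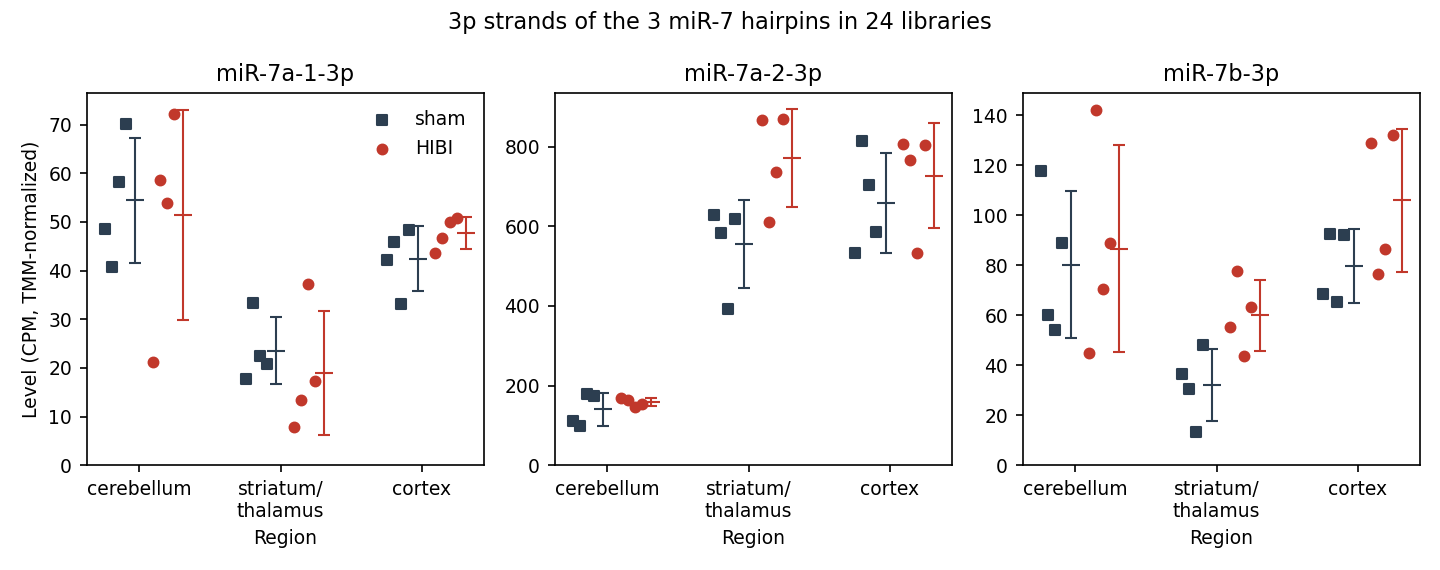
Levels of the 3p strands of the miR-7 hairpins (CPM, TMM-normalized) by region, with 1 point per library, sham as squares and HIBI as circles, and mean ± SD of 4 libraries at the right of each group. MiR-7a-2-3p lies under 200 CPM in every cerebellum library and at or above 392 in every other library, whereas miR-7a-1-3p and miR-7b-3p are lowest in the striatum/thalamus.

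Shares within a library do not depend on the scaling between libraries. MiR-7a-1-3p made up 26.1 ± 6.51% of the 3p counts of both miR-7a hairpins in the cerebellum (SD, n = 8), 6.27 ± 1.41% in the cortex, and 3.33 ± 1.71% in the striatum/thalamus. The cerebellum was highest in 8 of 8 pups against either region (-22.8 percentage points for the striatum/thalamus and -19.8 for the cortex, two-sided exact sign-flip permutation p = 0.00781 each, adjusted p = 0.0117 over the 3 pairs of regions), and 0.00781 is the smallest p that 8 pups allow. This share was added after the values had been seen. Against miR-7a-5p, miR-7a-1-3p was 4.72 ± 2.53% of the counts of both in the cerebellum, 2.48 ± 1.08% in the cortex, and 0.623 ± 0.336% in the striatum/thalamus. The cerebellum value joined 6.48 ± 2.30% in sham and 2.96 ± 1.21% after HIBI (SD, n = 4), where the cortex held 2.14 and 2.83%. The striatum/thalamus was lowest in 8 of 8 pups against the cerebellum and in 8 of 8 against the cortex (exact permutation p = 0.00781, adjusted p = 0.0352 over 9 comparisons for each).

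MiR-7b-5p, as a share of the counts of both 5p strands, ran from 21.6% in the sham cortex of pup 2 to 38.9% in the sham cerebellum of pup 3. It averaged 25.5 ± 1.05% in the striatum/thalamus, 27.4 ± 3.38% in the cortex, and 30.1 ± 4.28% in the cerebellum. The cerebellum held 32.9 ± 4.50% in sham and 27.3 ± 1.22% after HIBI (SD, n = 4), and the striatum/thalamus 25.8 and 25.2%. The difference between the striatum/thalamus and cerebellum was -4.62 percentage points (1 of 8 pups higher, exact permutation p = 0.0156, adjusted p = 0.0469), and those of the other pairs of regions did not pass. With each pup left out in turn this difference ran from -5.35 to -3.58. For miR-7a-1-3p against miR-7a-5p the striatum/thalamus stayed below the cerebellum by -4.51 to -3.40 and the cortex above the striatum/thalamus by 1.73 to 2.07, with the same sign in 7 of 7 pups each time. With 7 pups the smallest exact permutation p is 0.0156, which limits what can pass over 9 comparisons. How reads that match both strands were assigned is not given in the sources used here, so that reads may have moved between these near-identical sequences.

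Across the 8 pups of a region, with the means of HIBI and sham removed, miR-7a-5p and miR-7b-5p varied together. Pearson's r was 0.968 in the cerebellum, 0.996 for the striatum/thalamus, and 0.946 for the cortex, with Spearman's rho of 0.976, 0.881, and 0.929. The permutation p-values of r, adjusted over 12 relations, were 0.00149, 0.00149, and 0.00228 (raw 0.000124, 0.000248, and 0.000570), and those of rho were 0.00476, 0.0290, and 0.0134. All pairings of the 8 pups were used, although removing the group means ties the values within a group. The p-values of these relations are therefore approximate. Without the 2 pups farthest from the median r was 0.941, 0.947, and 0.912. The part of reads assigned to the other sequence in this was not tested. MiR-7a-5p with miR-7a-1-3p, the 3p strand of Mir7-1 alone, gave r of 0.615, 0.312, and -0.652. Of these 3, 0 passed with adjustment (smallest permutation p = 0.0676 unadjusted). MiR-7a-2-3p, the miR-7a 3p strand with more counts, was not examined in this way. Over the 24 libraries, with no means removed and no test, miR-7a-5p gave r of 0.618 with miR-7a-2-3p and -0.398 with miR-7a-1-3p.

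**Figure D3:**
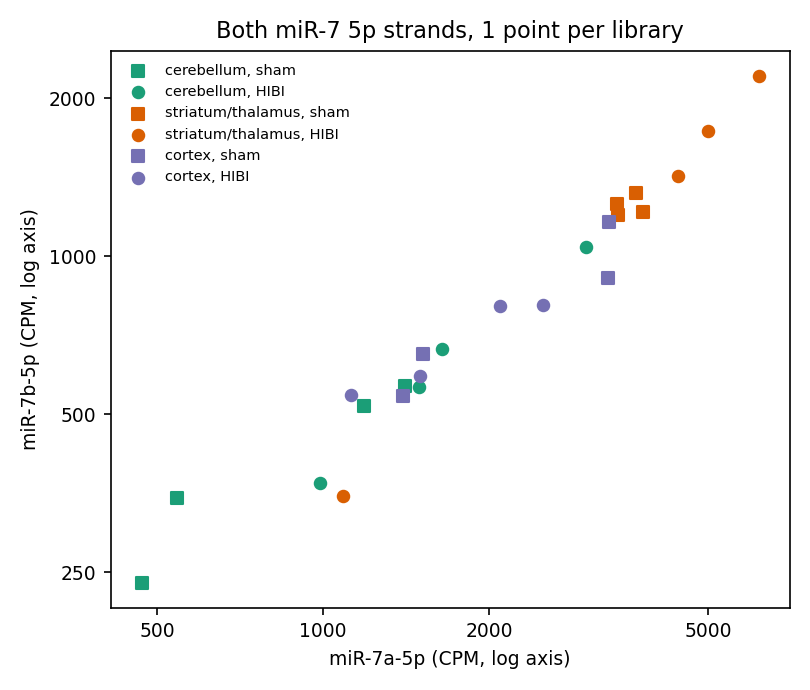
MiR-7b-5p against miR-7a-5p (CPM, both axes logarithmic), with 1 point per library, colours for the regions, squares for sham, and circles for HIBI. All 24 libraries lie near a single line, and the HIBI striatum/thalamus library of pup 4 sits among the cerebellum libraries at 1085 CPM of miR-7a-5p and 350 of miR-7b-5p.

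The effect of HIBI was compared with sham in each region from its 8 libraries, with edgeR's quasi-likelihood test. A member was counted where its fold exceeded 1.5 at an unadjusted p-value under 0.05. Members needed no minimum level here, and of the 5 miR-671-5p was below 10 CPM in each region. By this rule 1 of the 5 members was counted in the cerebellum, beside 7.59% of the 435 miRNAs tested there. The striatum/thalamus had 0 members counted, beside 2.75% of 437, and the cortex 0, beside 3.65% of 411. With Benjamini-Hochberg adjustment 0 members passed in any region, beside 0.243% of all miRNAs tested in the cortex and 0% in the cerebellum and 0% in the striatum/thalamus.

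The member counted was miR-7a-5p in the cerebellum. The HIBI libraries held 985, 1495, 2996, and 1643 CPM in pups 1, 4, 5, and 7, and the sham libraries held 468, 544, 1410, and 1188 CPM in pups 2, 3, 6, and 8. The low sham libraries were those of pups 2 and 3, the high HIBI library that of pup 5, and the groups overlapped, since the HIBI library of pup 1 was below sham pups 6 and 8. The difference was 2.01-fold (log2 1.00, standard error 0.394, unadjusted edgeR p = 0.0252, edgeR adjusted p = 0.437), and the exact permutation p over the 8 pups was 0.143 (two-sided, on log2(CPM + 1)). It no longer passed without sham pup 2 (log2 0.78), sham pup 3 (0.83), or HIBI pup 5 (0.64). MiR-7b-5p, with the same seed, differed by log2 0.68 there (standard error 0.335, edgeR adjusted p = 0.437). It passed without HIBI pup 1 (0.87) or sham pup 6 (0.85). Markers of other cells were also counted here, beside 7.59% of all miRNAs tested. Of 2 erythrocyte miRNAs tested, 1 was lower after HIBI (summed level of the list 593 to 798 CPM, against 745 to 1361 in sham). Of 3 skeletal muscle miRNAs 1 was higher (344 to 650 against 445 to 600 CPM), as was 1 of 6 neuronal miRNAs (102997 to 182477 against 120228 to 194924 CPM). Of the choroid plexus and ciliated, endocrine, and myeloid miRNAs, 0 of 4, 0 of 2, and 0 of 1 were counted. In the striatum/thalamus 1 of 3 endocrine and 1 of 5 choroid plexus miRNAs were higher (beside 2.75%), and in the cortex 1 of 3 endocrine was lower (beside 3.65%). The part of these cells in the miR-7 levels was not tested.

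In the forebrain 0 of the miR-7 strands were counted between HIBI and sham. The striatum/thalamus libraries of the HIBI group held 4406, 1085, 6179, and 4985 CPM of miR-7a-5p in pups 1, 4, 5, and 7, and the sham libraries between 3410 and 3803. A single HIBI library was thus below all sham libraries and the other HIBI libraries were above them. The log2 difference was 0.15 (95% interval -0.75 to 1.05), 0.54 without pup 4, and -0.11 without pup 5. Without pup 4, miR-7a-5p and miR-7b-5p (0.52) were both under 0.05 unadjusted but below a fold change of 1.5. In the cortex it was -0.41 (95% interval -1.10 to 0.27). MiR-7b-5p followed with 0.13 and -0.25. The 3p strand of its hairpin, miR-7b-3p, had the largest fitted difference of the miR-7 strands in the striatum/thalamus, log2 0.81 (standard error 0.372, edgeR adjusted p = 0.975, exact permutation p = 0.0571), and 0.40 in the cortex (edgeR adjusted p = 0.917). For miR-7a-1-3p the cerebellum gave -0.05, the striatum/thalamus -0.38, and the cortex 0.17, and the second of these was -0.96 and counted without HIBI pup 5.

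**Figure D4:**
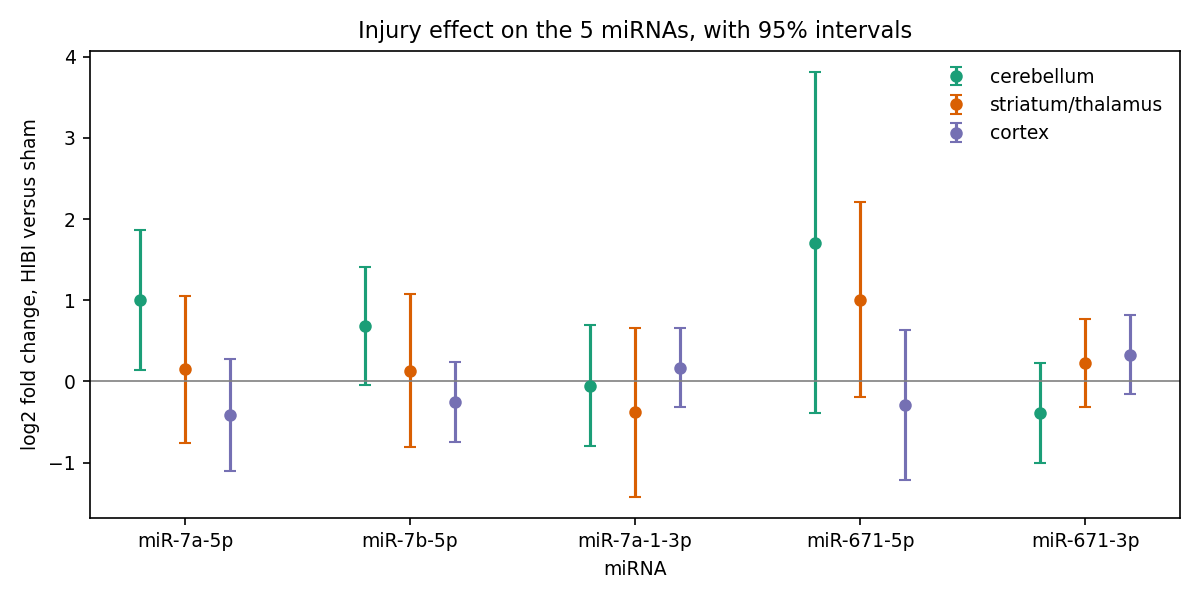
Log2 fold change of HIBI against sham for the 5 miRNAs in each region, with 95% intervals from edgeR's quasi-likelihood fit. The interval of miR-7a-5p in the cerebellum (0.15 to 1.86) lies above 0 and the other 14 intervals include 0, the widest being that of miR-671-5p in the cerebellum.

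Whether the effect of HIBI differed between the regions was tested as an interaction in the model of 24 libraries. With 2 degrees of freedom, 0 of the 5 members passed by edgeR's adjusted p-value, beside 0% of the 436 miRNAs (37 at an unadjusted p-value under 0.05), and 0 of the 5 were under 0.05 unadjusted. With the pup as a block miR-7a-5p and miR-671-3p were under 0.05 unadjusted, at edgeR adjusted p = 0.404 and adjusted p = 0.357. The effect averaged over both forebrain regions, less that of the cerebellum, was -1.07 on the log2 scale for miR-7a-5p (standard error 0.525, edgeR adjusted p = 0.320, and -1.20 with adjusted p = 0.166 in the blocked fit) and -0.69 for miR-7b-5p (0.463, edgeR adjusted p = 0.455). For miR-671-3p it was 0.76 (standard error 0.304, edgeR adjusted p = 0.239). The difference of miR-7a-5p in the cerebellum was therefore not shown to be particular to that region. With no filter on low counts, the interaction of miR-7a-5p passed (edgeR adjusted p = 0.0234).

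The strands of miR-671 differed in abundance in every library, with the 3p strand the larger. MiR-671-3p averaged 85.2 ± 24.3 CPM in the cerebellum (SD, n = 8). Its average was 83.2 ± 20.1 for striatum/thalamus and 85.7 ± 18.6 for cortex. With HIBI and sham averaged, its differences between regions were at most 0.04 on the log2 scale, with a 95% interval of -0.39 to 0.33 for the striatum/thalamus against the cerebellum and -0.34 to 0.38 for the cortex against the cerebellum. The average joins opposite signs, since these differences from the cerebellum were -0.41 and -0.36 in the sham libraries and 0.35 and 0.39 in the HIBI libraries, and 0 of the 4 passed. MiR-671-5p, the strand that pairs with Cdr1as, was near the limit of these libraries, at 2.41 ± 3.27, 3.72 ± 1.68, and 4.39 ± 1.73 CPM in the same order, and was below the filter of 10 CPM in each region, so it was tested only as a named miRNA. Of the counts of both strands it made up 4.87 ± 1.44% in the cortex, 4.33 ± 1.95% in the striatum/thalamus, and 2.71 ± 2.93% in the cerebellum.

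In counts, the sham cerebellum libraries held 2, 5, 1, and 1 reads of miR-671-5p in pups 2, 3, 6, and 8, and the HIBI cerebellum libraries 16, 2, 5, and 4 in pups 1, 4, 5, and 7. All but a single library of the cerebellum thus held 5 reads or fewer, and counting error is large. In the HIBI cerebellum of pup 1 the strand was 9.25% of the 173 miR-671 counts (95% Wilson interval 5.77 to 14.5, for counting error alone). The cortex held 7 to 26 reads per library. MiR-671-5p was higher in the cortex than in the cerebellum in 7 of 8 pups (log2 1.17, standard error 0.458, edgeR adjusted p = 0.0286). This did not pass without pup 4, 5, 6, 7, or 8 (log2 1.00, 1.03, 1.11, 1.11, and 1.01), and it was 0.19 in the HIBI libraries alone. The striatum/thalamus was also above the cerebellum in 7 of 8 pups (log2 0.86, standard error 0.479, edgeR adjusted p = 0.113). That difference passed without pup 1 (log2 1.41).

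**Figure D5:**
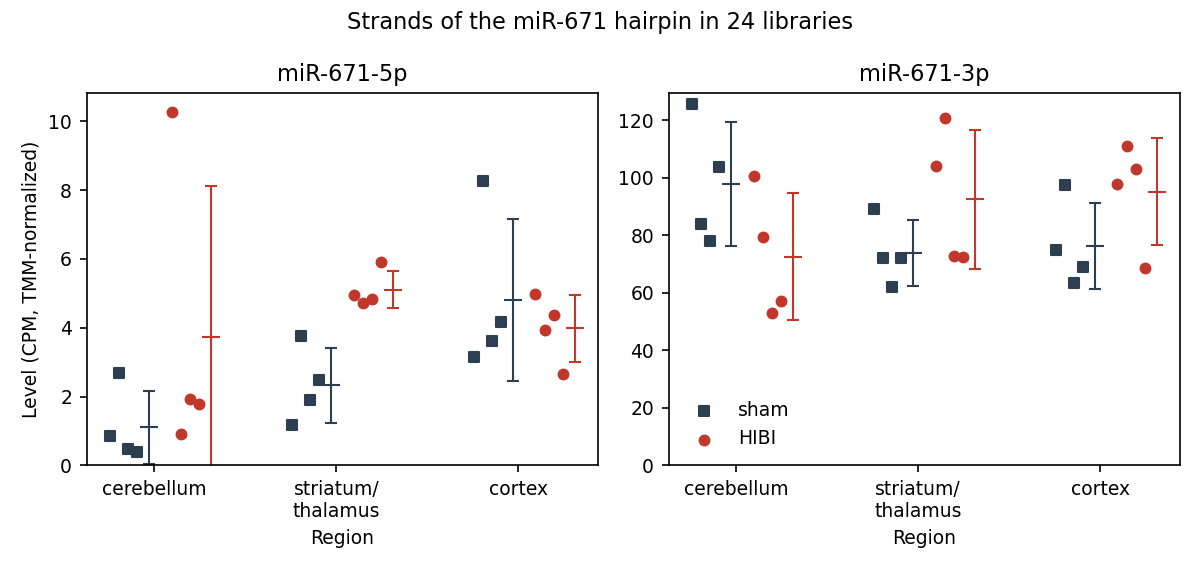
Levels of miR-671-5p and miR-671-3p (CPM, TMM-normalized) by region, with 1 point per library, sham as squares and HIBI as circles, and mean ± SD of 4 libraries at the right of each group, the lower bar of miR-671-5p in the HIBI cerebellum being cut at 0. In the striatum/thalamus the HIBI libraries of miR-671-5p (4.73 to 5.89 CPM) lie above the sham libraries (1.18 to 3.75), and in the cerebellum the HIBI library of pup 1 stands alone at 10.3 CPM.

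In the striatum/thalamus the HIBI libraries held 7, 7, 10, and 14 reads of miR-671-5p and the sham libraries 2, 9, 4, and 5. As CPM they were 4.96, 4.73, 4.84, and 5.89 after HIBI and 1.18, 3.75, 1.90, and 2.47 in sham, so that the groups did not overlap. The reads themselves did overlap, with 7 in HIBI pups 1 and 4 and 9 in sham pup 3. The gap thus rests on the scaling between libraries, and counting error is large at such numbers. The groups of 1 of the 5 members did not overlap in this region, beside 2.29% of all miRNAs tested, and in the cerebellum and cortex 0 of 5 did so, beside 3.68% and 3.41%. The exact permutation p was 0.0286, the smallest that 4 against 4 pups allow, while edgeR gave a log2 difference of 1.01 (standard error 0.545, unadjusted edgeR p = 0.0921, edgeR adjusted p = 0.975). MiR-671-5p differed by 1.71 in the cerebellum (standard error 0.966), and by -0.29 in the cortex (0.426). The cerebellum value was 0.56 without HIBI pup 1 and 2.54 without sham pup 3, where it was counted. It was also counted by edgeR's exact test (1.73) and in the contrast from the 24 libraries (1.67).

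MiR-671-3p differed between HIBI and sham by -0.39 in the cerebellum (95% interval -1.01 to 0.23), 0.23 for the striatum/thalamus (-0.31 to 0.77), and 0.33 for the cortex (-0.16 to 0.81). Its HIBI and sham libraries overlapped in each region, with 53.1 to 101 CPM against 77.9 to 126 CPM in the cerebellum. Without HIBI pup 1 the cerebellum difference was -0.62 and was counted. Of the 9 comparisons of strand shares between HIBI and sham, 0 passed with adjustment (smallest exact permutation p = 0.0571, adjusted p = 0.154). That p belonged to miR-7b-5p and to miR-7a-1-3p against miR-7a-5p in the cerebellum, at -5.61 and -3.52 percentage points after HIBI. A share separated fully by itself would reach only adjusted p = 0.257 with 4 against 4 pups, so the count of 0 says little. The share of miR-671-5p was higher after HIBI by 3.05 percentage points in the cerebellum and 2.38 in the striatum/thalamus and lower by 1.73 in the cortex, each with an exact permutation p = 0.0857. Over pups, miR-671-5p and miR-671-3p gave r of 0.384 in the cerebellum, -0.350 for the striatum/thalamus, and 0.793 for the cortex. The last had an approximate permutation p = 0.0184 (adjusted p = 0.0553). The rho of the cortex was 0.833 (approximate permutation p, adjusted, = 0.0461), and r without the 2 farthest pups was 0.521. MiR-7a-5p and miR-671-5p gave -0.602, 0.0473, and -0.473, and 0 of the 3 passed with adjustment.

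The miRNAs whose levels followed the members most closely were found over the 24 libraries by Pearson's r of log2(CPM + 1), among 429 miRNAs above 10 CPM. For miR-7a-5p these were miR-382-5p (r = 0.873), miR-329-3p (0.827), and miR-433-5p (0.819), while miR-7b-5p reached 0.978. MiR-671-5p was most like miR-540-3p (0.700), miR-127-3p (0.685), and miR-330-5p (0.659), and miR-671-3p most like miR-3968 (0.724), miR-6937-5p (0.675), and miR-6240 (0.670). These are descriptions over libraries that share pups and regions, with no test.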

How the data were processed

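MiRNA-Seq of 200 ng RNA per sample was available from 3 regions of 8 pups. Per the paper's methods, bowtie2 placed the reads on the mature mouse sequences of miRBase, and the authors deposited raw counts per mature miRNA, with no normalization. Versions, the genome build, and the rule for reads with several matches are not given in the sources used here. The same deposited tables hold the authors' edgeR comparison (log2 fold change, log2 CPM, p-value, and FDR), which was not used.

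The members and lists were chosen with earlier results of these data known. The members, the other miR-7 strands, and the 3 miRNAs most like a member were named by rule. The 20 castor bean entries (0.000156% of counts) were left out. Counts were analysed with edgeR 4.0.16 in R 4.3.3 (quasi-likelihood test, TMM, average above 10 CPM or a named miR-7 or miR-671 strand), and DESeq2 1.42.0 as an alternative. Pup numbers in the labels pair the regions, which were dissected from the same brain. After removal of group means, libraries of 1 pup correlated between regions with a median r of 0.16 to 0.27, and 5 to 7 of the 8 pups were above 0.1. Exact permutation tests were two-sided, over 70 arrangements of 4 against 4 pups or 256 sign flips. Relations across pups were permuted over 40320 pairings after removal of group means, which makes their p-values approximate (scipy 1.17.1). Depth limits precision, as 10 CPM was 12.5 to 34.1 counts. The code was tested on simulated data.

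Hairpins and transcripts came from GENCODE M21, mature sequences from RefSeq.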

Additional observations from a re-analysis of the deposited data

Results flagged for a closer look

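In the cerebellum after HIBI, the library of pup 1 held 10.3 CPM of miR-671-5p (16 reads), far from the nearest other library at 1.94 CPM, and its gap was 0.891 of the range of the group. In the sham cerebellum, miR-671-5p was 3.09% of both miR-671 strands in pup 3 (5 reads), against 0.685% in the nearest other library, with a gap of 0.888 of the range. Of 48 groups of 4 libraries examined, these 2 passed Dixon's limit, which chance passes in about 1 group in 20. The effect of HIBI on miR-671-3p was higher in the forebrain than in the cerebellum by 0.76 on the log2 scale (edgeR adjusted p = 0.239, and adjusted p = 0.141 with the pup as a block), a difference that passed 0.05 without adjustment alone. The causes were not tested.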

How the results depend on the processing

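The number of members counted between HIBI and sham in the cerebellum was 1. The number became 2 when library size alone set the scale, with a minimum of 1 CPM, with no filter, and in the contrast from the 24 libraries, 3 with edgeR's exact test, 0 with the exact permutation test at either pseudocount, and 0 to 3 with a pup left out. In the striatum/thalamus the number was 0, 1 with the permutation test at either pseudocount, and 0 to 1 with a pup left out. Between the cortex and cerebellum it was 2, but 0 with scaling by library size only, with a minimum of 1 CPM, and in the HIBI libraries alone, 1 with miR-7a-5p and miR-7b-5p summed, 1 with DESeq2, and 0 to 2 with a pup left out. Between the cortex and striatum/thalamus it was 3, and 0 in the sham libraries alone. Between the striatum/thalamus and cerebellum it was 3, 2 with miR-7a-5p and miR-7b-5p summed, and 4 without pup 1, by miR-671-5p. The interaction of region and injury was counted for 0 members, and for 1 with no filter. Of the shares compared between regions 3 passed, 6 with the added share, and 0 to 4 with a pup left out, when the smallest possible p is larger. The counts by edgeR's exact test, in the contrast from the 24 libraries, and by the permutation test in the striatum/thalamus include miR-671-5p, which is below 10 CPM. The cause was not tested for the others.

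Signs that turned belonged to differences whose 95% intervals included 0, and those of miR-671-3p against the cerebellum averaged opposite signs of sham and HIBI. On the log2 scale these were miR-7a-1-3p in the cerebellum (0.086 with library size only, -0.27 to 0.19 with a pup left out), miR-7a-5p and miR-7b-5p in the striatum/thalamus (-0.041 and -0.085 by the permutation test at a pseudocount of 1 and the same at 0.5, and -0.11 to 0.54 and -0.16 to 0.52 with a pup left out), and miR-671-5p in the cortex (-0.43 to 0.13). For regions they were miR-671-3p in the striatum/thalamus against the cerebellum (0.35 in the HIBI libraries, -0.088 to 0.031 with a pup left out), in the cortex against the cerebellum (-0.030 with library size only, -0.36 in the sham libraries, -0.070 to 0.094), and against the striatum/thalamus (-0.056 to 0.097), and miR-671-5p in the cortex against the striatum/thalamus (-0.37 in the HIBI libraries). With the pup as a replicate block, the members differing between the cortex and cerebellum were 3, by miR-7b-5p (edgeR adjusted p = 0.0482), and it changed no other call, with 3, 3, and 0 members in the remaining region comparisons and the interaction.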
